A study of Homo sapiens with 18 samples.

Results

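The 35 genes described here carry glucose through glycolysis, the pentose phosphate pathway and the entry of pyruvate into the mitochondrion, and they were taken as a list of symbols from the 62703 genes in the expression tables. All 35 were found and all 35 passed the filter on low counts in every comparison. They comprise 4 glucose and lactate transporters, 6 enzymes of hexose phosphorylation and the phosphofructokinase step, 3 phosphofructokinase-2/bisphosphatase regulators, 9 triose and lower glycolysis enzymes, 2 lactate dehydrogenase subunits, 6 genes of pyruvate dehydrogenase and its kinases, and 5 pentose phosphate enzymes. RNA-seq had been performed in MDA-MB-231, a triple-negative breast cancer line, in 5 groups of 2 libraries. Cells of 3 groups were transduced for 24 h with lentivirus carrying a control shRNA, a single hairpin against EZH2 (shEZH2) or a single hairpin against E2F1 (shE2F1), and were then selected for 72 h with 2 μg/ml puromycin. Cells of the other 2 groups were not transduced and were exposed for 72 h to DMSO or to 1 μM GSK126, which blocks the enzyme activity of EZH2. EZH2 methylates histone H3 as part of polycomb repressive complex 2, and E2F1 drives transcription of genes for cell division. The study asked what each of them does to gene expression in this line. With 1 hairpin for each gene, an effect of the hairpin's sequence on other transcripts cannot be told apart from the loss of its target.

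Glycolysis converts glucose to pyruvate in the cytosol, and lactate dehydrogenase reduces pyruvate to lactate while it regenerates the NAD+ that the GAPDH step uses. The pentose phosphate pathway branches off at glucose 6-phosphate, yields NADPH and ribose 5-phosphate, and returns sugars to glycolysis through transketolase and transaldolase. Pyruvate dehydrogenase commits pyruvate to the tricarboxylic acid cycle and is switched off when its kinases phosphorylate it. Many tumour cell lines, MDA-MB-231 among them, are known for a high rate of glucose uptake and lactate release in the presence of oxygen.

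The libraries held between 13198932 and 20055550 estimated counts, so that in CPM, the count scaled to a common library size, a count of 0 allowed a level of up to 0.15 to 0.227, for counting error only. The EZH2 transcript was at 155 and 183 CPM with control shRNA and at 53.1 and 44.8 CPM with shEZH2, and the E2F1 transcript fell from 145 and 140 CPM to 26.2 and 22.7 CPM with shE2F1. E2F1 also fell with shEZH2, to 63 and 32.3 CPM, and EZH2 fell with shE2F1, to 122 and 138 CPM, so that both transcripts were lower in both knockdowns. Of 4 transcripts that MDA-MB-231 cells express highly, 2 fell with shEZH2 and 1 of these was called, the mesenchymal marker VIM, at 3266 and 3560 CPM with control shRNA, 1431 and 1282 CPM with shEZH2, and 2763 and 2885 CPM with shE2F1, when it also fell. The hormone receptor genes ESR1 and PGR were at 0.217 CPM or less, and of 6 blood, endothelial and liver markers none exceeded 1.33 CPM. The receptor gene ERBB2 did pass the filter on low counts. It fell with shEZH2 (log2 change −0.73), and its shE2F1 change of −0.16 did not pass the test. Replication-dependent histone genes held 0.0423% and 0.0448% of counts with control shRNA against 0.0879% and 0.0985% with shEZH2 and 0.048% and 0.0532% with shE2F1. The histone transcripts lack poly(A) tails, and the part of this difference in the results below was not tested. Nothing in the labels says that the libraries of a group came from separate cultures, so p-values measure the spread between these libraries, which may be technical.

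Promoter windows of 32 of the 35 genes were found in a RefSeq table (GRCh38.p14), each reaching from 250 bases before to 50 bases after a listed transcription start. Both strands were searched for ACGTG, the core of the hypoxia response element, for CACGTG, the E-box that contains this core, and for the E2F site written as TTTCCCGC, TTTCGCGC, TTTGCCGC or TTTGGCGC. The hypoxia core was in 12 of the 32 windows (37.5%) against 21.6% of all 27305 windows, the E-box in 4 (12.5%) against 7.43%, and an E2F site in 3 (9.38%) against 3.33%. The windows with an E-box were those of ALDOC, GAPDH, LDHA and PDHB, and those with an E2F site were those of PFKM, GAPDH and PDHA1. A match is only a match of letters in this window. The windows of 4 genes, a choice from those called in a knockdown, are shown 5′ to 3′ on the gene's strand, with every match in capitals. GAPDH was called lower in both knockdowns, PDHB with shEZH2, and LDHA and SLC2A1 with shE2F1.
GAPDH, chr12:6535014-6535313, plus strand: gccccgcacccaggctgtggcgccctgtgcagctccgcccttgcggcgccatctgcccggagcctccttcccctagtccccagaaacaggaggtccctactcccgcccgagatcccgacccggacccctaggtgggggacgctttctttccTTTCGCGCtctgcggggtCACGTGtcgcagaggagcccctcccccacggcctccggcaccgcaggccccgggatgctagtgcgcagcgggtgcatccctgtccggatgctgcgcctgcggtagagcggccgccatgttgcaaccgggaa
PDHB, chr3:58433783-58434082, minus strand: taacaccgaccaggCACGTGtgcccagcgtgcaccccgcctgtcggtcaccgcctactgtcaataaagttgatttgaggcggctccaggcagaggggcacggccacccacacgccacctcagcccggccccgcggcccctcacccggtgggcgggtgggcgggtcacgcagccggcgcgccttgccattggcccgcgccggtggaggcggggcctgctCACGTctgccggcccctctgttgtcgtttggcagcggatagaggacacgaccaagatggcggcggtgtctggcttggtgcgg
LDHA, chr11:18394313-18394612, plus strand: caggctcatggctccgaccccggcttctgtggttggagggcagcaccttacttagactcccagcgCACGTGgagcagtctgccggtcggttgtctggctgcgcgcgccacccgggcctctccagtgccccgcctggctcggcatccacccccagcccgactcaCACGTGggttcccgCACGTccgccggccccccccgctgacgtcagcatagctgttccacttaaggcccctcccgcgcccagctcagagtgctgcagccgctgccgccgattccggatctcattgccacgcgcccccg
SLC2A1, chr1:42958819-42959118, minus strand: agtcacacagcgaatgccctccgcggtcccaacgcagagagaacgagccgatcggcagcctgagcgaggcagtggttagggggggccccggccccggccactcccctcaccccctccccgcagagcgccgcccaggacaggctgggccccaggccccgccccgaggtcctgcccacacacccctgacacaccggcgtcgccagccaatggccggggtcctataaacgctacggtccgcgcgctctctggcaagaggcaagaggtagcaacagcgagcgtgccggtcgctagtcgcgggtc
The GAPDH window held an E2F site that begins 99 bases before its listed start and an E-box that begins 81 bases before it. In GENCODE the GAPDH gene begins at base 6534512, upstream of this window, so the window lies inside the gene. The same holds for PFKM, whose gene begins at base 48105139 and whose window begins at 48105623, and for some other genes. These windows are not at the first annotated start of their genes. The LDHA window held 2 E-boxes, 185 and 87 bases before the start, and a further hypoxia core. The SLC2A1 window held none of the motifs. Nor did the windows, not shown, of PKM, PFKL, PFKFB3, PFKFB4, TKT and PDK1, which were also called in a knockdown against control shRNA.

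Both knockdowns left the 35 genes with a smaller share of the messenger RNA. On the TPM scale, on which each transcript's reads are divided by its length, the genes together held 2.08% and 2.04% of the total with control shRNA, 1.2% and 1.22% with shEZH2, and 1.23% and 1.16% with shE2F1. The similar sums were made up differently. GAPDH alone went from 0.722% and 0.716% of TPM to 0.116% and 0.0877% with shEZH2 and to 0.41% and 0.36% with shE2F1. The other 34 genes held 1.36% and 1.33% with control shRNA, 1.08% and 1.13% with shEZH2, and 0.819% and 0.796% with shE2F1. In the drug experiment the 35 genes held 1.89% and 2.03% with DMSO and 1.76% and 1.91% with GSK126, and the groups overlapped. These are levels in bulk RNA, in which fewer cells with a transcript and less transcript per cell cannot be told apart.

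**Figure D1:**
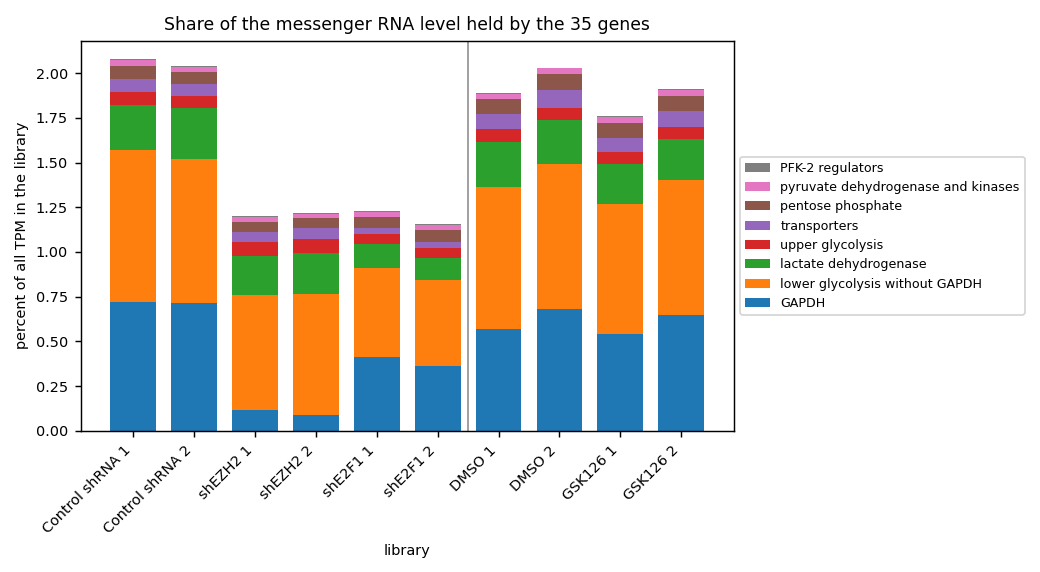
Stacked bars give the percent of all TPM (y axis, from 0) held by GAPDH and by each group of the 35 genes in each of the 10 libraries (x axis), with the knockdown experiment left of the line and the drug experiment right of it. The bars of the 4 knockdown libraries end between 1.16% and 1.23% and those of the other 6 libraries between 1.76% and 2.08%. The GAPDH segment is smallest in the shEZH2 libraries.

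Each gene was tested with edgeR's quasi-likelihood test, adjusted over all genes tested by the Benjamini-Hochberg method. A gene rose or fell where its adjusted p was below 0.05, and it was called where its adjusted p was below 0.01 and its change exceeded 2-fold. In shEZH2 cells 5 of the 35 genes rose and 18 fell, against 27% and 28.6% of the 15373 genes tested, and the median change of the 35 was −0.43 on the log2 scale against −0.02 for all genes. Called were 2 genes higher (7.52% of all genes) and 4 lower (10.7% of all genes). In shE2F1 cells 3 rose and 26 fell, against 21.1% and 23.7% of all genes, with a median of −0.52 against 0.00. Here 0 were called higher (5.6% of all genes) and 8 lower (5.96% of all genes). For comparison, the 200 genes with the highest TPM in the control cells, GAPDH, PKM and LDHA among them, had median changes of −0.63 with shEZH2 and −0.38 with shE2F1. With shEZH2 the change across all genes was related to GC content (r = −0.239 across genes, which are not independent), and the 35 genes had a median GC content of 53% against 48% for all genes with a mean of at least 10 counts. After correction for GC content and length, 8 rose and 15 fell with shEZH2, beside 4153 and 4182 of all 15373 genes. The median of the 35 was then −0.16. With shE2F1 the same correlation was −0.0182.

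**Figure D2:**
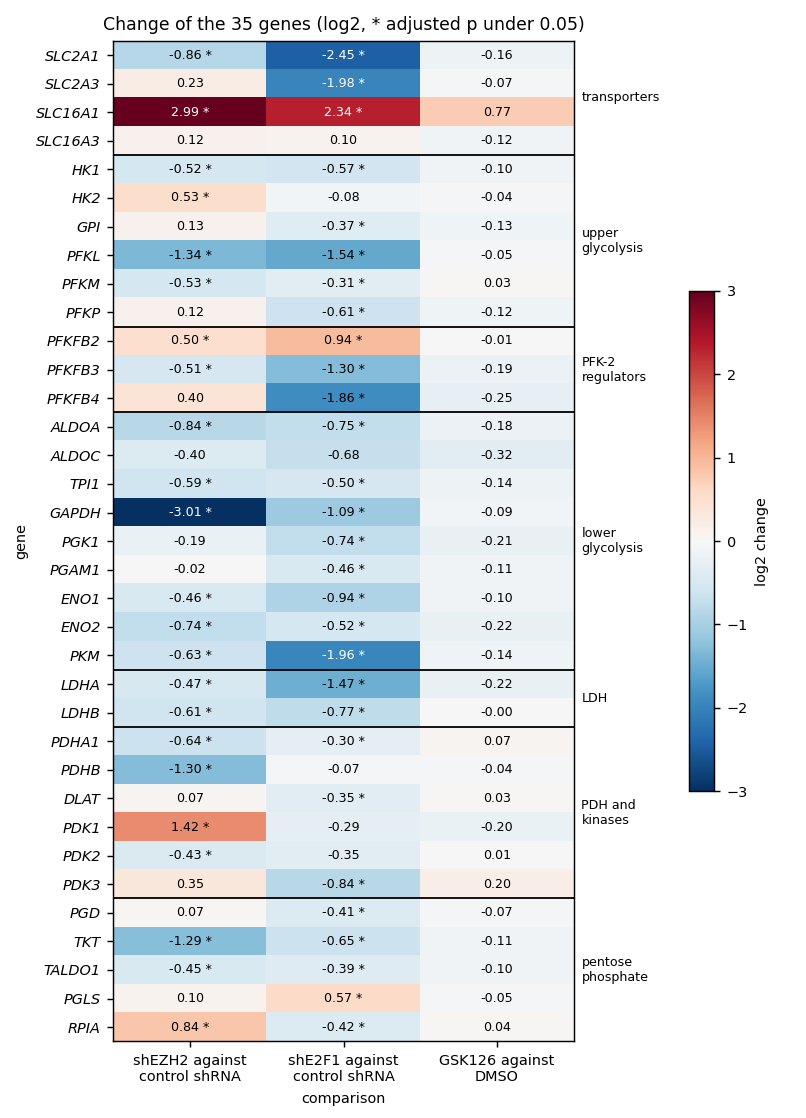
Each cell of the heat map gives the log2 change of 1 gene (y axis, grouped by role) in 1 comparison (x axis), in blue where lower and in red where higher, with an asterisk where the adjusted p was below 0.05. Colours end at 3 in either direction. The shE2F1 column holds 26 lower and 3 higher genes with an asterisk, the shEZH2 column 18 and 5, and the GSK126 column 0.

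Glucose transport separated the knockdowns. SLC2A1 (chr1:42925353-42958893, minus strand, GRCh38) encodes GLUT1, the main glucose carrier of most tumour cells. It was at 766.6 and 695 CPM with control shRNA, 407.7 and 398.5 CPM with shEZH2, and 145.3 and 122.2 CPM with shE2F1. The 3 groups did not overlap. It fell by 0.86 ± 0.10 (log2 ± SE, n = 2 against 2; edgeR adjusted p = 5.4e-05) with shEZH2 and by 2.45 ± 0.11 (edgeR adjusted p = 4.46e-07), a 5.46-fold lower level, with shE2F1. SLC2A3, which encodes the high-affinity carrier GLUT3, was at 41.9 and 33.06 CPM with control shRNA and at 9.76 and 9.178 CPM with shE2F1, a log2 change of −1.98 ± 0.17. With shEZH2 it was at 37.89 and 49.91 CPM, which overlapped the control range (log2 change 0.23 ± 0.15, edgeR adjusted p = 0.225). In TPM, SLC2A1 held between 93.6% and 97% of the sum of the pair in all 10 libraries.

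Neither lactate transporter fell. SLC16A3 encodes MCT4, the exporter of highly glycolytic cells, and stayed between 339.5 and 405.2 CPM in the 6 knockdown libraries, with changes of 0.12 ± 0.09 and 0.10 ± 0.09. With GC content and length corrected for, its shEZH2 change was 0.52 and passed the test (edgeR adjusted p = 0.000876). SLC16A1 encodes MCT1, which MDA-MB-231 cells are known to lack, and it was at 0 and 0.4246 CPM with control shRNA, 1.367 and 1.902 CPM with shEZH2, and 1.063 and 1.032 CPM with shE2F1, at most 33 counts in any library. Its fitted changes of 2.99 ± 0.76 and 2.34 ± 0.78 were past the threshold (edgeR adjusted p = 0.00645 and 0.0319). They depended on the control libraries. Without the control library at 0 they were 1.94 and 1.28, and without the other control library they were 7.87 and 7.22.

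In the upper steps both knockdowns lowered the liver-type phosphofructokinase. Phosphofructokinase catalyses the committed step of glycolysis, and PFKL encodes its liver-type subunit. PFKL was at 143 and 121.1 CPM with control shRNA, 56.27 and 48.41 CPM with shEZH2, and 46.77 and 44.1 CPM with shE2F1. The control range lay above both others, and PFKL was called lower in both (log2 changes of −1.34 ± 0.12 and −1.54 ± 0.12). With GC content and length corrected for its shEZH2 change was −0.98, short of 2-fold. PFKM, the muscle-type subunit gene, went from 76.33 and 74.18 CPM to 53.08 and 51.29 CPM with shEZH2 and to 63.97 and 57.46 CPM with shE2F1, and fell in both (−0.53 ± 0.10 and −0.31 ± 0.10). PFKP, the platelet-type subunit gene, was at 345.6 and 328 CPM with control shRNA, 332.7 and 399.9 CPM with shEZH2, and 223.7 and 217.2 CPM with shE2F1, and it fell with shE2F1 (−0.61 ± 0.10) and had a change of 0.12 ± 0.10 with shEZH2, which was 0.36 and passed with GC content and length corrected for (edgeR adjusted p = 0.0128). In TPM, PFKL made up 23.3% and 23% of the 3 subunits with control shRNA, 10.7% and 8.5% with shEZH2, and 12.3% and 12.7% with shE2F1.

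Hexokinase traps glucose in the cell as glucose 6-phosphate. HK1 encodes the broadly expressed isoenzyme and fell in both knockdowns (−0.52 ± 0.10 and −0.57 ± 0.10). HK2 encodes the isoenzyme that many tumours induce. It rose with shEZH2, from 186.7 and 195.4 CPM to 262.8 and 289.9 CPM (0.53 ± 0.10, edgeR adjusted p = 0.000845), and was at 192.5 and 170 CPM with shE2F1 (−0.08 ± 0.10, edgeR adjusted p = 0.554). GPI, which isomerises glucose 6-phosphate, fell with shE2F1 (−0.37 ± 0.09) and had a change of 0.13 ± 0.09 with shEZH2. HK2 accounted for 35% and 36.6% of hexokinase TPM with control shRNA and for 50.5% and 57.1% with shEZH2.

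The 3 bifunctional regulators set the level of fructose 2,6-bisphosphate, the activator of phosphofructokinase, and their makeup changed with shE2F1. PFKFB4 was at 37.44 and 26.57 CPM with control shRNA, 36.98 and 47.66 CPM with shEZH2, and 7.924 and 9.722 CPM with shE2F1. The shE2F1 libraries lay far below the others (−1.86 ± 0.20, edgeR adjusted p = 3.47e-05), and shEZH2 overlapped the control. The shEZH2 change of PFKFB4 was 0.40 ± 0.18, and 0.70 with GC content and length corrected for, when it passed (edgeR adjusted p = 0.00356). PFKFB3, the isoenzyme with the highest kinase activity, fell from 52.82 and 59.2 CPM to 37.89 and 40.69 CPM with shEZH2 (−0.51 ± 0.11) and to 23.14 and 22.21 CPM with shE2F1 (−1.30 ± 0.11). The shEZH2 fall did not pass the test with GC content and length corrected for. PFKFB2 was at 28.99 and 19.29 CPM with control shRNA, and rose to 50.88 and 41.93 CPM with shE2F1 (0.94 ± 0.18) and to 37.44 and 31.12 CPM with shEZH2 (0.50 ± 0.18, edgeR adjusted p = 0.0391). Its shEZH2 change was 0.23 after that correction, with an edgeR adjusted p of 0.294. Of the TPM of the 3 genes, PFKFB2 held 15.7% and 13.2% with control shRNA and 48.2% and 46% with shE2F1.

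GAPDH showed the largest fall of the 35 genes with shEZH2. GAPDH (chr12:6534512-6538374, plus strand, GRCh38) encodes the dehydrogenase that makes NADH in glycolysis, and its transcript often serves as a reference for expression measurements. It was at 5539 and 5883 CPM with control shRNA, 802.2 and 619.5 CPM with shEZH2, and 2913 and 2464 CPM with shE2F1. The 3 groups stood apart. The fall with shEZH2 was −3.01 ± 0.14 on the log2 scale, an 8.04-fold lower level (edgeR adjusted p = 4.97e-07), and with shE2F1 it was −1.09 ± 0.13 (edgeR adjusted p = 8.42e-05). With GC content and length corrected for the changes were −2.61 and −1.17. Among the 200 most abundant genes, GAPDH had the second lowest change with shEZH2, and it ranked 137 from the lowest among all 15373 genes tested. GAPDH has 65 annotated pseudogenes, which together held 0.0659% of the joint counts, and the posterior SD of its estimated count was at most 0.000757% of the count.

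PKM showed a large fall with shE2F1. PKM (chr15:72199029-72231819, minus strand) encodes pyruvate kinase M, which makes pyruvate and ATP in the last step of glycolysis. Its values were 3317 and 3392 CPM with control shRNA, 1995 and 2332 CPM with shEZH2, and 891.4 and 837.1 CPM with shE2F1. The fall was −0.63 ± 0.10 with shEZH2 and −1.96 ± 0.10, or 3.88-fold, with shE2F1 (edgeR adjusted p = 9.6e-07). PKM ranked 3 from the lowest among the 200 most abundant genes with shE2F1, where GAPDH ranked 12, and 97 with shEZH2. Gene-level counts do not separate its M1 and M2 splice forms.

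The other enzymes between aldolase and enolase changed by less than 2-fold, and not all of them passed the test. ALDOA, the main aldolase gene here, fell by 0.84 ± 0.09 with shEZH2 and by 0.75 ± 0.09 with shE2F1. TPI1, which interconverts the triose phosphates, fell by 0.59 ± 0.08 and 0.50 ± 0.08, and the former did not pass with GC content and length corrected for. ENO1, the abundant enolase gene, went from 2242 and 2279 CPM to 1593 and 1692 CPM with shEZH2 and to 1249 and 1112 CPM with shE2F1. ENO2, the neuronal enolase gene, fell by 0.74 ± 0.09 and 0.52 ± 0.09. For PGK1, the first ATP-yielding enzyme, and PGAM1, a phosphoglycerate mutase, only the shE2F1 change passed the test (−0.74 ± 0.09 and −0.46 ± 0.09), with shEZH2 changes of −0.19 ± 0.09 and −0.02 ± 0.09. With GC content and length corrected for, the shEZH2 change of PGK1 was −0.34 and passed (edgeR adjusted p = 0.00946). ALDOC stayed at 6.186 CPM or less in the knockdown experiment and passed in neither (−0.40 ± 0.30 and −0.68 ± 0.30). Its shE2F1 change was −0.75 with GC content and length corrected for, when it passed (edgeR adjusted p = 0.0462). Parts of ALDOA, PGAM1 and TPI1 are shared with other genes or pseudogenes (52.3%, 56.8% and 20.8% of their stretches of 50 bases), where RSEM has to divide the reads. The posterior SD of their estimated counts was at most 0.221%, 0.106% and 0.00593% of the count. Adding the pseudogene counts to their parents changed no count of genes that passed.

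**Figure D3:**
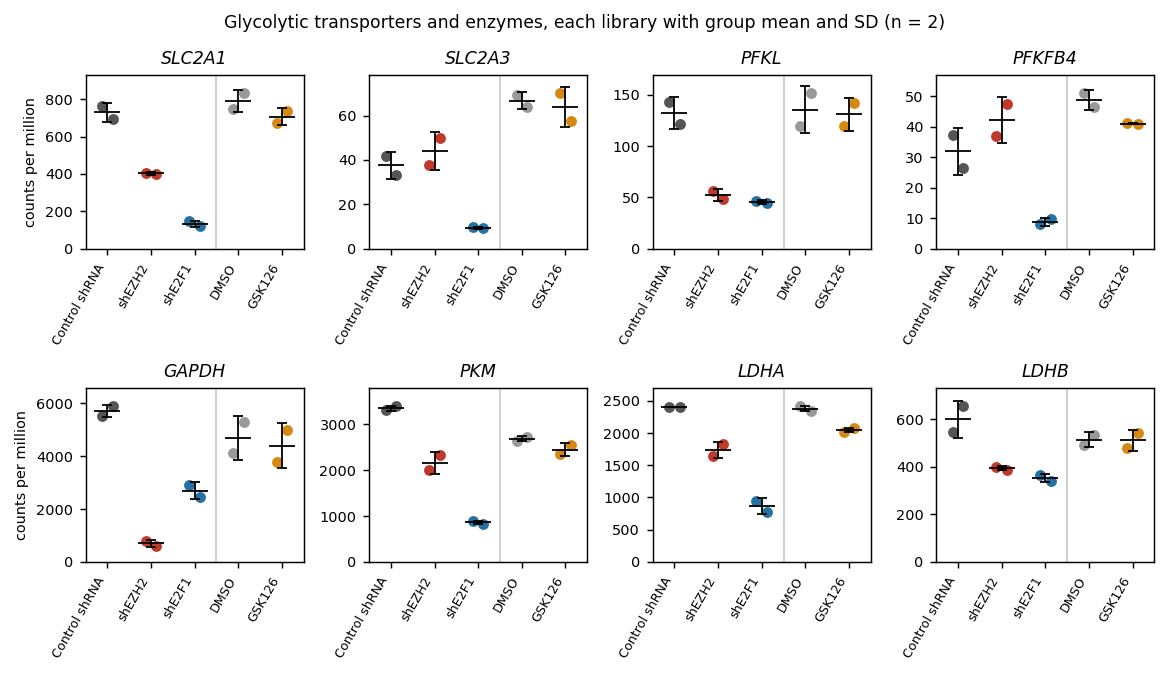
Each panel gives the level of 1 glycolytic gene in CPM (y axis, from 0) in the 5 groups (x axis), with points for the 2 libraries and a black line and bar for their mean and SD. Levels were normalized separately left and right of the grey line. GAPDH is lowest in the shEZH2 libraries (802.2 and 619.5 CPM), and SLC2A1, SLC2A3, PFKFB4, PKM and LDHA are lowest in the shE2F1 libraries.

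Both lactate dehydrogenase subunits fell in both knockdowns. LDHA (chr11:18394560-18408425, plus strand) encodes the subunit that favours lactate formation. It was at 2409 and 2407 CPM with control shRNA, 1644 and 1829 CPM with shEZH2, and 952.4 and 781.7 CPM with shE2F1. LDHA fell by 0.47 ± 0.11 with shEZH2 and by 1.47 ± 0.11 with shE2F1 (edgeR adjusted p = 0.00388 and 4.32e-06). LDHB, which encodes the heart-type subunit, went from 544.5 and 652.6 CPM to 398.7 and 387.6 CPM and to 363.4 and 339.7 CPM, with changes of −0.61 ± 0.10 and −0.77 ± 0.10. In TPM, LDHA made up 72.8% and 72.2% of the pair with control shRNA, 74% and 76.6% with shEZH2, and 62.7% and 60.5% with shE2F1. Of the 50-base stretches of LDHB, 58.5% are shared with a readthrough gene or pseudogenes, and the posterior SD of its estimated count was at most 0.016% of the count.

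At pyruvate dehydrogenase the shEZH2 cells showed a lower E1 subunit level beside a higher kinase level. PDHA1 and PDHB encode the alpha and beta subunits of the E1 component, which decarboxylates pyruvate. PDHB was at 126.3 and 121.1 CPM with control shRNA, 52.7 and 48.07 CPM with shEZH2, and 121.5 and 114.5 CPM with shE2F1. Its log2 change was −1.30 ± 0.10 with shEZH2, a 2.46-fold lower level (edgeR adjusted p = 3.45e-06), while the shE2F1 libraries overlapped the control range (−0.07 ± 0.09, edgeR adjusted p = 0.574). PDHA1 fell by 0.64 ± 0.11 with shEZH2 and by 0.30 ± 0.11 with shE2F1, the latter with an edgeR adjusted p of 0.0415 that DESeq2 did not pass. DLAT, the E2 acetyltransferase gene, had a change of 0.07 ± 0.09 with shEZH2 and fell by 0.35 ± 0.09 with shE2F1.

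The kinases phosphorylate E1 and switch it off. PDK1 (chr2:172555373-172608669, plus strand) was at 35.56 and 31.3 CPM with control shRNA and at 81.56 and 97.86 CPM with shEZH2, a rise of 1.42 ± 0.12, 2.68-fold (edgeR adjusted p = 6.62e-06). With shE2F1 it was at 26.53 and 28.35 CPM (−0.29 ± 0.12, edgeR adjusted p = 0.079). PDK1 has a GC content of 39.5%, the lowest of the 35 genes, and with GC content and length corrected for its rise was 0.99, short of 2-fold. PDK3 fell with shE2F1 from 24.74 and 20.14 CPM to 13.96 and 11.03 CPM (−0.84 ± 0.16) and had a change of 0.35 ± 0.15 with shEZH2. PDK2 was at 25.39 and 18.74 CPM with control shRNA, 15.19 and 17.64 CPM with shEZH2, and 17.2 and 17.49 CPM with shE2F1. It fell with shEZH2 (−0.43 ± 0.16, edgeR adjusted p = 0.0462) and had a change of −0.35 ± 0.16 with shE2F1. The shEZH2 fall did not pass with DESeq2 or with GC content and length corrected for. Of the TPM of the 3 kinases, PDK1 held 34.6% and 31.5% with control shRNA, 55.9% and 59.8% with shEZH2, and 28.6% and 28.3% with shE2F1.

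In the pentose phosphate pathway the enzymes of its non-oxidative arm moved in different directions. TKT encodes transketolase, which exchanges carbon units with glycolysis. It was at 413.4 and 394.5 CPM with control shRNA, 177.3 and 153.6 CPM with shEZH2, and 251.6 and 262.1 CPM with shE2F1. TKT fell by 1.29 ± 0.10 and 0.65 ± 0.09, and the 3 groups did not overlap. TALDO1, the transaldolase gene, fell by 0.45 ± 0.09 and 0.39 ± 0.09, and the former did not pass with GC content and length corrected for. RPIA encodes the isomerase that makes ribose 5-phosphate for nucleotide synthesis. It rose with shEZH2, from 24.42 and 28.08 CPM to 45.87 and 47.72 CPM (0.84 ± 0.12, edgeR adjusted p = 0.000144), and fell with shE2F1 to 18.89 and 20.42 CPM (−0.42 ± 0.12, edgeR adjusted p = 0.0155). Both knockdown ranges lay outside the control range, on opposite sides.

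In the oxidative arm, PGLS encodes the lactonase and PGD the dehydrogenase that yields NADPH. PGLS rose with shE2F1 from 37.17 and 31.18 CPM to 50.49 and 50.83 CPM (0.57 ± 0.11) and was at 37.36 and 36.19 CPM with shEZH2. Its shEZH2 change of 0.10 ± 0.11 became 0.63 with GC content and length corrected for, and then passed (edgeR adjusted p = 0.000257). PGD fell with shE2F1 (−0.41 ± 0.09) and had a change of 0.07 ± 0.09 with shEZH2.

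**Figure D4:**
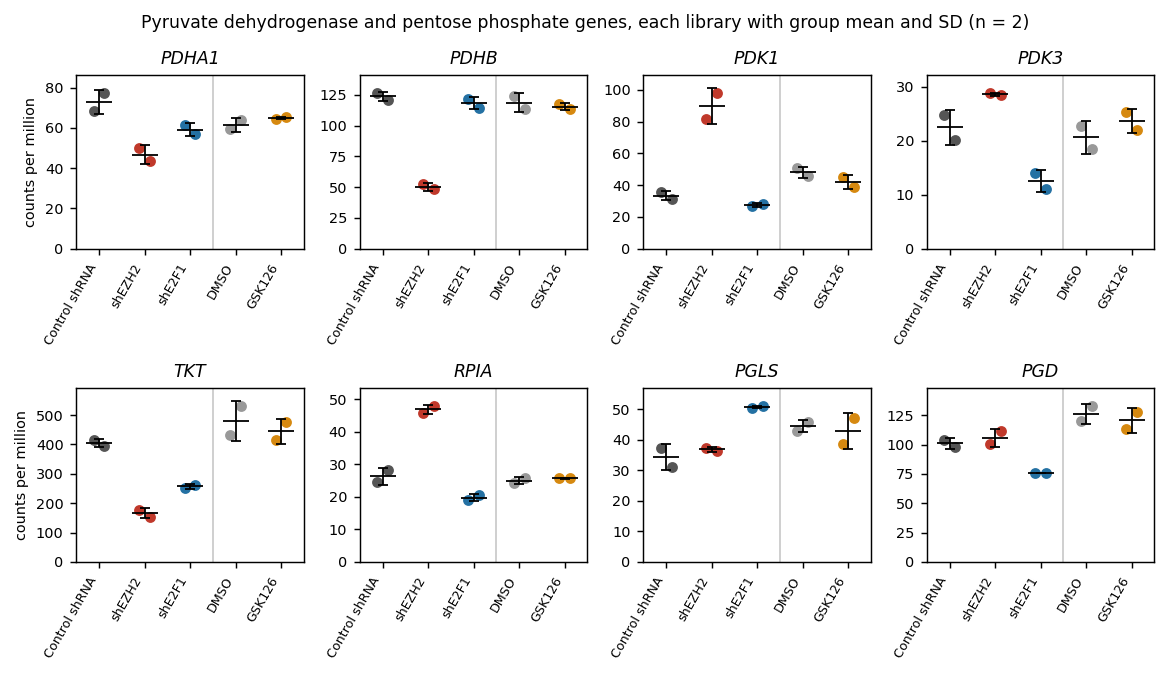
Each panel gives the level of 1 pyruvate dehydrogenase or pentose phosphate gene in CPM (y axis, from 0) in the 5 groups (x axis), with points for the 2 libraries and a black line and bar for their mean and SD. Levels were normalized separately left and right of the grey line. PDHB and TKT are lowest and PDK1 and RPIA highest in the shEZH2 libraries.

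The hairpins were also compared directly, a difference that does not use the control levels, although the control libraries share in the estimate of the spread. Of the 35 genes, 17 were higher in shEZH2 than in shE2F1 cells (29.7% of all 15373 genes) and 5 were lower (30.6% of all genes), with a median of 0.42 against −0.02. Called were 8 genes higher (10.4% of all genes) and 2 lower (12.9% of all genes). The 8 were PFKFB4 (2.27 ± 0.20), SLC2A3 (2.22 ± 0.17), PDK1 (1.71 ± 0.12), SLC2A1 (1.59 ± 0.11), PKM (1.32 ± 0.10), RPIA (1.25 ± 0.12), PDK3 (1.19 ± 0.15) and LDHA (1.00 ± 0.11). They include both glucose carriers, the last enzyme of glycolysis and the lactate-forming subunit. The 2 called lower were GAPDH (−1.92 ± 0.13) and PDHB (−1.23 ± 0.09). TKT, PGLS and PDHA1 were lower without being called (−0.64 ± 0.10, −0.46 ± 0.11 and −0.34 ± 0.11). With GC content and length corrected for, the PGLS difference was 0.15 and the PDK3 difference was 0.77, short of 2-fold. The LDHA difference ran from 0.87 to 1.15 without 1 library. For PFKL, ALDOA and TPI1, which fell in both knockdowns, the difference between the hairpins was 0.20 ± 0.12, −0.09 ± 0.09 and −0.09 ± 0.08 and did not pass the test. With GC content and length corrected for, these differences were 0.48, 0.17 and 0.37. Those of PFKL and TPI1 then passed (edgeR adjusted p = 0.00136 and 0.00373). The shEZH2 libraries had the higher histone share of counts in this comparison too.

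GSK126 moved none of the 35 genes past the threshold in the fit that does not use the replicate numbers. The background was the same, 0% of 14632 genes higher and 0% lower at an adjusted p below 0.05, and 0% called in either direction. By edgeR 577 of all genes had an unadjusted p below 0.05, and DESeq2 passed 16 genes higher and 3 lower, with 0 of the 35 among them. The result depended on the fit. With the replicate number as a block, 922 genes were higher and 1068 lower of all 14632. SLC2A1, ALDOA, GAPDH, PGK1, PKM and LDHA were among the lower genes, and the last section gives the count of members. No label ties the replicate numbers to a batch. Without the block, the changes of the 35 ran from −0.32 ± 0.16 for ALDOC to 0.77 ± 0.47 for SLC16A1, with a median of −0.10 against −0.01 for all genes. SLC2A1 was at 748.6 and 832.7 CPM with DMSO and at 673.8 and 737.7 CPM with GSK126. GAPDH was at 4104 and 5285 CPM with DMSO and at 3800 and 4998 CPM with GSK126, and the ranges overlap. For LDHA the ranges were apart, 2413 and 2350 CPM with DMSO and 2024 and 2073 CPM with GSK126, and so they were for PGK1, 963.2 and 1021 CPM against 837.9 and 872.7 CPM. Ranges were apart and lower with GSK126 for SLC2A1, HK1, PFKP, PFKFB3, PFKFB4, ALDOC, ENO2, PKM and PDK1 too. They were apart and higher with GSK126 for SLC16A1 and PDHA1, of which SLC16A1 was at 0.9838 CPM or less. How many of all genes had ranges apart was not counted, so these separations are not read as a result about the 35 genes. The fitted changes of LDHA and PGK1 were −0.22 ± 0.08 and −0.21 ± 0.09, with edgeR adjusted p = 1 for both.

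The difference between the shEZH2 effect and the GSK126 effect was tested in 1 model over all 10 libraries. It passed the test on the positive side for 4 of the 35 genes (16.9% of 15773 genes) and on the negative side for 13 (19.7% of genes), with a median of −0.24 against −0.03. With GC content and length corrected for 10 passed on the positive side and 9 on the negative, beside 3172 and 3057 of all 15773 genes. Past the 2-fold threshold were GAPDH (−2.90 ± 0.24), PFKL (−1.28 ± 0.21), PDHB (−1.24 ± 0.14) and TKT (−1.16 ± 0.18) on the negative side (8.67% of genes) and PDK1 (1.63 ± 0.19) on the positive side (5.13% of genes). With GC content and length corrected for, the PFKL difference was −0.91, short of 2-fold. The knockdown cells were transduced and selected while the drug cells were not, and both effects are set against their own controls.

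Further genes of the same pathways were taken as lists, whose counts can be read against all genes tested: 27% rose and 28.6% fell with shEZH2, and 21.1% rose and 23.7% fell with shE2F1. Of 33 other glycolysis and glucose entry genes 21 were tested with the knockdowns. With shEZH2 3 rose and 11 fell, 1 and 9 of them called, and with shE2F1 1 rose and 8 fell, 0 and 2 of them called. Of all genes, 7.52% and 10.7% were called higher and lower with shEZH2, and 5.6% and 5.96% with shE2F1. TXNIP, an arrestin that limits glucose uptake, was at 356 and 432 CPM with control shRNA, 197 and 121 CPM with shEZH2, and 104 and 102 CPM with shE2F1. Several genes of this list fell further with shEZH2 than TXNIP, whose log2 change was −1.31. BSG, the chaperone of the lactate transporters, was at 774 and 786 CPM with control shRNA, 762 and 859 CPM with shEZH2, and 413 and 391 CPM with shE2F1. Of 9 other genes of pyruvate dehydrogenase and the pyruvate carrier, 3 rose and 1 fell with shEZH2, and 0 rose and 3 fell with shE2F1. PDP1, a phosphatase that switches pyruvate dehydrogenase on, rose with shEZH2 from 63.9 and 49 CPM to 117 and 120 CPM, so that it and PDK1 rose in the same cells.

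The tricarboxylic acid cycle list had 22 genes, of which 1 rose and 12 fell (54.5%) with shEZH2 and 1 rose and 6 fell (27.3%) with shE2F1, the latter share near the background. Of 12 serine and glycogen branch genes, 2 rose and 8 fell with shEZH2, and 2 rose and 4 fell with shE2F1. Hypoxia-inducible factor (HIF) is a known activator of many glycolytic genes. Of 18 HIF factors and other HIF target genes, 11 rose and 2 fell with shEZH2 (median 0.59), and 1 rose and 11 fell with shE2F1 (median −0.62). In the direct comparison 16 of the 18 were higher with shEZH2 and 0 lower, against 29.7% and 30.6% of all genes. ADM, which encodes the peptide adrenomedullin, was at 71.8 and 94.7 CPM with control shRNA, 131 and 151 CPM with shEZH2, and 20.3 and 20.6 CPM with shE2F1. HIF1A, the oxygen-regulated subunit, had a change of 0.02 with shEZH2 and fell by 0.48 with shE2F1, at the transcript level. With GSK126 0 genes of these lists passed the test in the fit that does not use the replicate numbers.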

How the data were processed

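Poly(A) RNA-seq libraries of MDA-MB-231 cells were read from 18 deposited sample records, of which 8 repeated another record's values, leaving 10 distinct libraries, 2 a group. The authors aligned reads to hg38 with STAR (version 2.7.2b per the submitters' processing notes, another in the methods) and the Ensembl 108 annotation, and made estimated counts and TPM per gene with RSEM 1.3.1, which divides reads between genes that share sequence. The deposited RSEM tables also hold a posterior SD of each count. Whether counting used the strand is not given in the sources used here. Counts were rounded to whole numbers. Genes were named and placed with GENCODE 44 on GRCh38.

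Low genes were filtered with filterByExpr, and TMM-scaled counts were tested with edgeR 4.0.16 (R 4.3.3, quasi-likelihood test, Benjamini-Hochberg), with 6 libraries in the knockdown fit, 4 in the drug fit and 10 in the joint fit. CPM were normalized within each experiment and are not comparable across the 2 experiments. Alternatives were DESeq2 1.42.0, its size factors, no filter, other libraries in the fit, the replicate number as a block, a correction for GC content and length, added pseudogene counts, and leaving out each library. On simulated counts the knockdown fit recovered 98% of 100 genes changed by 1.2 on the log2 scale, and the drug fit 98%. Besides these, 24 and 25 unchanged genes passed. The counts were drawn independently with the spread of each fit, and smaller changes were not simulated, so the recovery of smaller changes is not known. The members and lists were chosen with earlier results of these data known. Values per library are given for members called in a comparison, the 4 smallest adjusted p in each knockdown comparison, their isoenzymes, and some further members. All 35 members are named, and of other lists at most 3 genes a direction. Of these, BSG and HIF1A were named after their values were seen. A list of further pentose phosphate genes is not reported here.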

Additional observations from a re-analysis of the deposited data

Results flagged for a closer look

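The effect of shEZH2 and the effect of shE2F1 differed, by the direct comparison of the hairpins with edgeR, for 10 of the 35 genes past the 2-fold threshold. The shEZH2 effect was the higher by 2.27 on the log2 scale for PFKFB4, 2.22 for SLC2A3, 1.71 for PDK1, 1.59 for SLC2A1, 1.32 for PKM, 1.25 for RPIA, 1.19 for PDK3 and 1.00 for LDHA. For GAPDH the difference was −1.92 and for PDHB −1.23. The effects of shEZH2 and GSK126 differed, in the model over all libraries, by −2.90 for GAPDH, −1.28 for PFKL, −1.24 for PDHB, −1.16 for TKT and 1.63 for PDK1. With GC content and length corrected for, PFKL was −0.91 here and PDK3 was 0.77 between the hairpins, both short of 2-fold. Groups of 2 libraries were not searched for outlying libraries.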

How the results depend on the processing

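Of 256 counts of genes that passed, recomputed under the alternatives, 237 stayed within 1.5 times the value reported, 11 rose and 8 fell beyond it. The replicate numbers showed no pairing in the knockdowns (correlations of deviations 0.0343, 0.00808 and 0.065), where the replicate block gave 6 higher and 17 lower genes for shEZH2 and 3 and 26 for shE2F1. In the drug experiment the correlation was 0.47 over 14377 genes. There the replicate block gave 17 of the 35 genes lower with GSK126 and 0 called, beside 922 genes higher and 1068 lower of all 14632. With the block and the correction for GC content and length 19 were lower, beside 895 genes higher and 1666 lower of all. With that correction 8 genes were higher with shEZH2 (9 with the block), 1 of them called, and 10 had a positive difference between shEZH2 and GSK126 effects (10 with the block). With no filter on low counts 1 gene was called higher with shE2F1, and with only the libraries of the comparison 1 with shEZH2. Leaving out 1 library gave between 1 and 2 genes called higher with shEZH2, 0 and 1 with shE2F1, 1 and 2 for the difference between shEZH2 and GSK126, and between 7 and 15 genes with a negative difference there, 7 without DMSO replicate 1 and 8 without GSK126 replicate 2. Signs were followed for all 35 genes in both knockdowns, for some with GSK126, and otherwise only for genes that had passed. Other changes also turned under the correction for GC content and length, such as that of TPI1 between hairpins, from −0.09 to 0.37. Among the changes followed, signs turned for those given next, of which only that of PGLS between the hairpins had passed the test. With shEZH2, PGAM1 was 0.0015 by DESeq2, 0.0015 with its size factors and 0.204 under the correction for GC content and length (0.204 with the block), and ran from −0.053 to 0.030 without 1 library. DLAT was −0.101 under that correction (−0.101 with the block) and PDK3 −0.057 (−0.044 with the block), and without 1 library PFKP ran from −0.0065 to 0.25, ALDOC from −0.74 to 0.060 and PGLS from −0.010 to 0.23. With shE2F1 HK2 ran from −0.17 to 0.0099, and with GSK126 GAPDH from −0.30 to 0.105. Between hairpins PGLS was 0.149 under the correction for GC content and length (0.149 with the block). The cause was not tested. Depth limits SLC16A1, at most 33 counts in a library.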
